A study of Rattus norvegicus with 8 samples.

Results

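The miR-183 cluster is a set of 3 microRNA (miRNA) genes, for miR-183, miR-96 and miR-182, that are transcribed together. In the small RNA counts of the rat striatum its mature products were rno-miR-183-5p, rno-miR-183-3p, rno-miR-96-5p, rno-miR-96-3p and rno-miR-182, written below without the prefix for rat. They were taken by name and made up 5 of the 752 mature miRNAs in the count table. The cluster was singled out because miR-183-5p, miR-182 and miR-96-5p were known from the same counts to be higher in the methamphetamine (METH) group than in the saline group. Their difference between the groups is therefore given as a description, and calls from tests over all miRNAs are given only to place it beside the whole table.

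Small RNA was sequenced from the striatum, a forebrain region of reward and movement, in 4 saline and 4 METH self-administered rats, with 1 library per rat. All were male wild-type Sprague-Dawley rats, trained with food pellets to press a lever and fitted with a jugular catheter. The METH group pressed a lever for intravenous METH, a psychostimulant, and the saline group received only saline through the same procedure. The study kept rats with stable lever pressing for plasma sampling, and whether these are the rats sequenced is not given in the sources used here. The age of the rats is not given in the sources used here. A level is an average over all cells of the sample, and fewer cells of a type cannot be told apart from less RNA per cell.

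A miRNA gene is transcribed as a long precursor that is cut to a hairpin and then to a short duplex. One strand of the duplex, the guide, is loaded into an Argonaute protein and directs it to messenger RNAs that pair with its seed, bases 2 to 8, while the other strand, the passenger, is mostly degraded. The cluster is best known from sensory organs. Its members are abundant in photoreceptors and in hair cells of the inner ear, and mutations in the seed of miR-96 cause hearing loss.

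The mature sequences are shown because the 3 abundant members resemble each other. They were taken from RefSeq (assembly GRCr8, chromosome 4, minus strand), which held all 5 members. Each is written 5′ to 3′, and capitals mark the seed.
miR-183-5p: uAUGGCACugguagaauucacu
miR-96-5p: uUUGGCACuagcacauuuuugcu
miR-182: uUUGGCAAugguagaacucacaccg
miR-183-3p: uGAAUUACcgaagggccauaa
miR-96-3p: cAAUCAUGugcagugccaauau

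Positions are counted from 1 at the 5′ end, and the first-named miRNA gives the first base. In the seed, miR-183-5p and miR-96-5p differed by A2U alone, and miR-96-5p and miR-182 differed by C8A alone. miR-183-5p and miR-182 differed by both A2U and C8A in the seed. Over the 22 bases that miR-183-5p and miR-182 have in common from the 5′ end, 18 were the same, and the other differences were U17C and U22A. By contrast, miR-183-5p and miR-96-5p were the same at 13 of 22 positions, and miR-96-5p and miR-182 at 12 of 23. The longest stretch shared by miR-183-5p and miR-182 was 8 bases, and no rat miRNA outside the cluster in this RefSeq set had the seed of any of the 5 members. This set matched 685 of the 752 miRNAs of the count table by name.

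The hairpins are shown because they place the arms whose counts are compared below. Capitals mark the mature arms listed in the count table.
Mir183: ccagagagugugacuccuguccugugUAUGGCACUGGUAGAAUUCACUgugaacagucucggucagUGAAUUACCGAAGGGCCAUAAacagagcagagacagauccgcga
Mir96: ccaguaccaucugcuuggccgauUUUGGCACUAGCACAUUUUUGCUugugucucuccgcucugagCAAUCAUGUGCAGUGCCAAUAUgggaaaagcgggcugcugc
Mir182: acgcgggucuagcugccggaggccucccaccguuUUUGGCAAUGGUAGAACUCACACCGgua

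Mir183 and Mir96 each had a 5p and a 3p arm, whereas Mir182 was listed with 1 mature product and no arm suffix. On GRCr8 the genes followed each other in the order Mir182, Mir96 and Mir183, between the protein-coding gene Nrf1 on one side and the miRNA gene Mir3553, followed by Ube2h, on the other. The neighbouring miR-3553 had 0 counts in all 8 libraries, where 3 counts would correspond to between 0.109 and 0.206 CPM, counts per 1000000 counts of the library.

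The level of miR-183-5p, the guide strand followed up by the study, is given in CPM scaled by trimmed mean of M-values (TMM). In saline rats 1 to 4 it was 8.38, 3.78, 10.03 and 6.49 CPM, from counts of 187, 88, 275 and 166. In METH rats 1 to 4 it was 13.2, 57.2, 322 and 157 CPM, from counts of 192, 1136, 7972 and 2609. The groups did not overlap, but METH rat 1 was only 1.31 times the highest saline rat, whereas METH rat 3 was 44.9 times the saline mean.

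The level of miR-182, a guide strand of the same cluster, was 9.91, 5.54, 10.1 and 9.30 CPM in saline rats 1 to 4. In METH rats 1 to 4 it was 12.2, 65.2, 258 and 96.1 CPM. Here too the groups did not overlap, and METH rat 1 was 1.21 times the highest saline rat. Saline rat 2 was the lowest of all 8 rats for miR-182, as it was for miR-183-5p.

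The level of miR-96-5p, the guide strand linked to hearing, was 5.87, 5.36, 6.67 and 6.33 CPM in saline rats 1 to 4. In METH rats 1 to 4 it was 10.2, 48.5, 184 and 46.0 CPM. The groups did not overlap, and METH rat 1 was 1.53 times the highest saline rat.

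**Figure D1:**
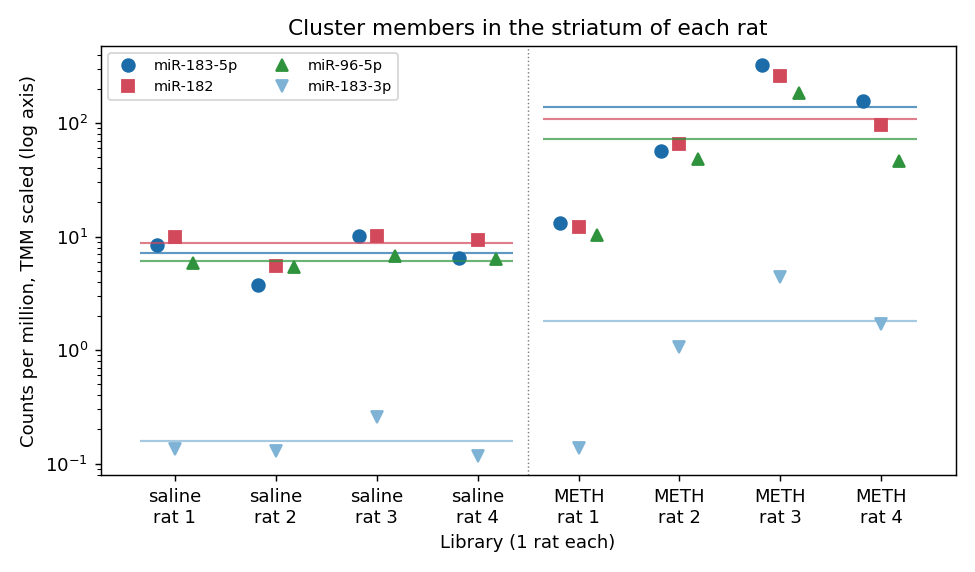
Level of 4 cluster members in each library, in TMM-scaled CPM on a log axis. Each point is 1 rat, horizontal lines are group means, and miR-96-3p is left out because most of its counts were 0. METH rat 1 sits just above the saline rats for miR-183-5p, miR-182 and miR-96-5p, and METH rat 3 is the highest rat for all 4 members.

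The passenger arm miR-183-3p had counts of 3, 3, 7 and 3 in saline rats 1 to 4 and of 2, 21, 108 and 28 in METH rats 1 to 4. These correspond to 0.117 to 0.255 CPM in the saline group and to 0.137, 1.06, 4.36 and 1.68 CPM in METH rats 1 to 4. METH rat 1 lay within the saline range for this arm, at a depth where 3 counts were worth 0.206 CPM. The passenger arm miR-96-3p had 1 count in saline rat 3, 2 counts in METH rat 3 and 0 in the other 6 libraries, so its level could not be compared between the groups at this depth.

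The METH and saline groups were compared over all miRNAs with the quasi-likelihood test of edgeR, which left out miRNAs with low counts. The members miR-183-5p, miR-96-5p and miR-182 passed this filter, and miR-183-3p and miR-96-3p did not. At an adjusted p under 0.05, 0 of the 507 miRNAs tested were called (percent called, 0), so 0 of the 3 tested members were called. Without adjustment 28 miRNAs (5.52%) were under 0.05. Without METH rat 1, edgeR called 5 of 513 miRNAs (0.975%), among which were these 3 members. It also called miR-183-3p, which passed the filter there only through the higher counts of METH rats 2, 3 and 4, so that its call is no evidence of a difference. With all libraries, DESeq2 called 8 of 505 miRNAs (1.58%), among which were the 3 tested members. Over all miRNAs tested, 9 (1.78%) had every METH rat above every saline rat in CPM, and the 3 tested members were among these 9. Because the members were chosen on this contrast, these counts carry no information of their own about the cluster.

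Log2 fold changes of the METH group over the saline group in the edgeR fit were 4.26 ± 0.85 (SE, n = 4 per group) for miR-183-5p, 3.63 ± 0.75 for miR-182 and 3.57 ± 0.73 for miR-96-5p. A fit without the filter gave 3.44 ± 0.80 for miR-183-3p. Without METH rat 3 these values were lower, at 3.33 for miR-183-5p, 2.67 for miR-182, 2.47 for miR-96-5p and 2.55 for miR-183-3p. The median over all 507 miRNAs tested was -0.02, and 7 of the 507 (1.38%) were above 3. Of these 7, 3 were cluster members and 4 were miR-200c-3p, miR-429, miR-200a-3p and miR-200b-3p, which belong to the miR-200 family of epithelial miRNAs.

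METH rats differed from each other more than saline rats did. For miR-183-5p the highest METH rat was 24.4 times the lowest, against 2.66 times in the saline group. For miR-182 these ratios were 21.1 and 1.83, and for miR-96-5p they were 17.9 and 1.24. As a share of the group mean, the SD of miR-96-5p was 9.38% in the saline group, where independent counts of 125 to 183 would alone give 8.26%. The SD of miR-183-5p in the saline group was 37.5% of its mean and that of miR-182 was 24.7%, where independent counts would give 8.12% and 7.08%. These counting values are lower limits, since reads may not be independent molecules. In the METH group the SD was 99.8% of the mean for miR-183-5p, 106% for miR-96-5p and 98.2% for miR-182. The median over all miRNAs tested was 22.3% in the saline group and 36.4% in the METH group, and 11 to 16 of the 507 had a larger relative SD in the METH group than these members.

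Summed over the 5 members, the cluster level was 22.1 ± 5.27 CPM (SD, n = 4) among saline rats and 319 ± 318 CPM (SD, n = 4) among METH rats. It ranged from 14.8 CPM in saline rat 2 to 27.1 CPM in saline rat 3, and from 35.8 CPM in METH rat 1 to 768 CPM in METH rat 3. METH rat 2 was at 172 CPM and METH rat 4 at 300.4 CPM. METH rat 3 held 68.0% of all cluster counts of its group, and without it the METH mean was 169 CPM. Even in this rat the cluster took only 0.0736% of all miRNA counts. By level, miR-183-5p ranked 132nd of 612 detected miRNAs in METH rat 3, and between 347th and 398th in the saline rats.

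Within the METH group, the rats were in the order rat 3, rat 4, rat 2 and rat 1 for miR-183-5p, miR-183-3p and miR-182. For miR-96-5p, rats 2 and 4 changed places, at 48.5 and 46.0 CPM. Relative to the saline mean, METH rat 2 was 7.97 times higher for miR-183-5p, 7.47 times for miR-182 and 7.997 times for miR-96-5p, so the 3 guide strands stood nearly level in this rat. In METH rat 4 these values were 21.9, 11.02 and 7.59, and in METH rat 3 they were 44.9, 29.6 and 30.3. As a ratio of counts, miR-183-5p over miR-96-5p was highest in METH rat 4, at 1.77 on the log2 scale, and next in METH rat 3, at 0.81.

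Ratios within a library do not depend on the scaling of the libraries. Because the members were chosen on the gap between the groups, the spread is given within each group. Within the METH group, the SD of the log2 ratio of counts was 0.38 for miR-183-5p over miR-182, 0.35 for miR-96-5p over miR-182 and 0.69 for miR-183-5p over miR-96-5p. The SD of the log2 levels there was between 1.70 and 1.99. Within the saline group alone, the SD of the log2 ratio of miR-183-5p over miR-182 was 0.25, below the SD of both levels, 0.60 and 0.41. Both ratios with miR-96-5p had a larger SD there, 0.50 and 0.31, than the level of miR-96-5p itself, 0.13.

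The order of levels among members was not used to choose them and could be tested within rats. Each of the 10 pairs was compared by a two-sided exact sign-flip permutation test on the mean log2 ratio of counts over 8 rats, with 0.5 added to each count. The counts were not divided by length, on the assumption that each read stands for 1 mature miRNA of 21 to 25 bases. The order therefore refers to reads as counted. The smallest p this test allows is 0.00781.

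The highest members were miR-183-5p and miR-182, which did not differ beyond their spread. The log2 ratio of miR-183-5p over miR-182 was -0.05 ± 0.42 (SD, n = 8), with a range of -0.55 to 0.70 and an adjusted p of 0.758 in the exact permutation test. This ratio was below 0 in all 4 saline rats, with a mean of -0.33, and above 0 in 3 of the 4 METH rats, with a mean of 0.24. METH rat 2, at -0.19, lay within the saline range of -0.55 to -0.02.

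The level of miR-96-5p was lower than that of miR-182 in 8 of 8 rats. The log2 ratio of miR-96-5p over miR-182 was -0.52 ± 0.31 (SD, n = 8), and the adjusted p was 0.00977 in the exact permutation test. This ratio ranged from -1.06 to -0.05, the last in saline rat 2 from counts of only 125 and 129. The level of miR-96-5p was lower than that of miR-183-5p in 7 of 8 rats. The log2 ratio of miR-183-5p over miR-96-5p was 0.48 ± 0.66 (SD, n = 8). This difference did not pass the threshold, at an adjusted p of 0.0608 in the exact permutation test. The mean log2 ratio was 0.16 among saline rats, with a range of -0.50 to 0.59. Among METH rats it was 0.79, with a range of 0.24 to 1.77. The exception to the direction was saline rat 2, at -0.50. Without it the log2 ratio was 0.62, with an adjusted p of 0.0174 in the exact permutation test. All remaining ratios were above 0, so the test could only give the smallest p that 7 rats allow, 0.0156. The adjusted p without saline rat 2 is therefore no support for a general order.

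**Figure D2:**
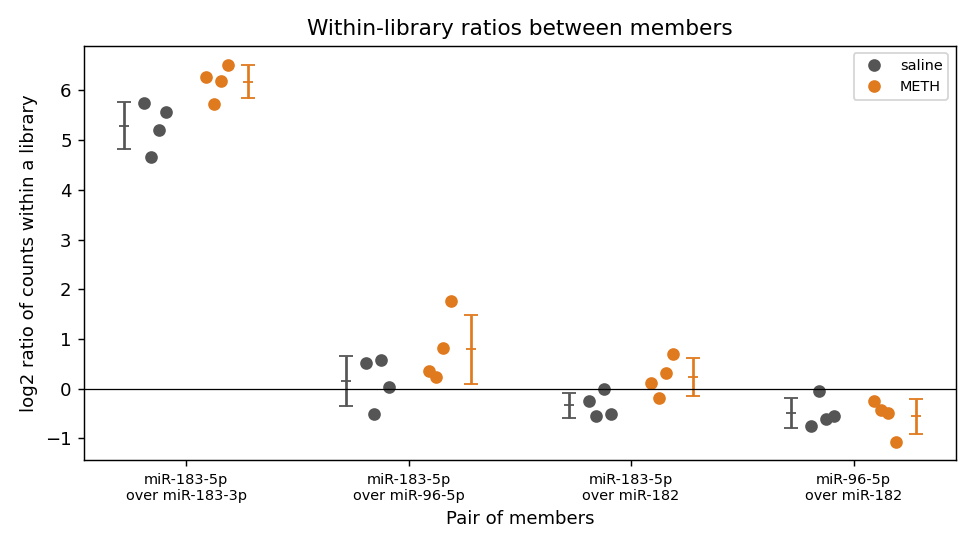
Log2 ratio of counts between pairs of members within each library, with 0.5 added to each count. Each point is 1 rat, and bars are the mean and SD of the 4 rats of a group. The ratio of miR-183-5p over miR-183-3p lies between 4.66 and 6.52 in every rat, whereas the ratio of miR-183-5p over miR-182 lies on both sides of 0.

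The 5p arm was far above the 3p arm in both hairpins for which 2 arms were listed. The log2 ratio of miR-183-5p over miR-183-3p was 5.74 ± 0.61 (SD, n = 8), and it was above 0 in 8 of 8 rats at an adjusted p of 0.00977 in the exact permutation test. For miR-96 the 5p arm was likewise higher in 8 of 8 rats, at the same adjusted p of 0.00977 in the exact permutation test. Summed over all libraries, miR-96-5p had 7028 counts and miR-96-3p had 3. Both passenger arms were also below each guide strand of the cluster in 8 of 8 rats, with an adjusted p of 0.00977 for each pair in the exact permutation test. The counts of the passenger arms were too low in most rats to set one against the other.

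The passenger share of miR-183, the percentage of 3p counts in both arms, was 1.58, 3.30, 2.48 and 1.78% in saline rats 1 to 4. In METH rats 1 to 4 it was 1.03, 1.82, 1.34 and 1.06%. The means were 2.28 ± 0.78% (SD, n = 4) among saline rats and 1.31 ± 0.36% (SD, n = 4) among METH rats, and the groups overlapped. Exact Clopper-Pearson 95% intervals covered 0.685 to 9.33% in saline rat 2 and 1.10 to 1.61% in METH rat 3, which had the most counts of miR-183. The saline values rest on 3 to 7 counts of the 3p arm, so the saline intervals, which cover counting error only, were wider than the gap between the group means.

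The passenger share of miR-96 was lower still. Over all libraries it was 0.0427%, with an exact 95% interval of 0.00880 to 0.125%, while that of miR-183 was 1.37%, with an interval of 1.17 to 1.58%. In METH rat 2, with 0 counts of miR-96-3p beside 963 of miR-96-5p, a share of up to 0.312% is allowed by the limit of 3 counts, and up to 0.382% by the exact 95% interval. Over the 234 hairpins with both arms listed and at least 100 counts in all, the median share of the less abundant arm was 3.68%. Counts summed over libraries come mostly from the METH rats. Summed within groups, the passenger share of miR-183 was 2.19% in the saline group and 1.32% in the METH group, and that of miR-96 was 0.166% and 0.0311%, from 1 and 2 counts of the 3p arm.

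The share of the summed cluster count held by miR-183-5p was 31.5 ± 5.17% (SD, n = 4) among saline rats and 41.0 ± 8.20% (SD, n = 4) among METH rats. It was 25.5% in saline rat 2, the lowest value, and 52.1% in METH rat 4, the highest. The share of miR-182 was 39.3 ± 2.31% (SD, n = 4) among saline rats and 34.4 ± 2.51% (SD, n = 4) among METH rats. The share of miR-96-5p was 28.4 ± 5.59% (SD, n = 4) among saline rats and 24.0 ± 6.17% (SD, n = 4) among METH rats, with 36.2% in saline rat 2 and 15.3% in METH rat 4. The groups overlapped for all 3 guide strands. While the cluster level differed 51.9-fold between the lowest and the highest rat, the share of miR-182 stayed between 32.0 and 41.8%.

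**Figure D3:**
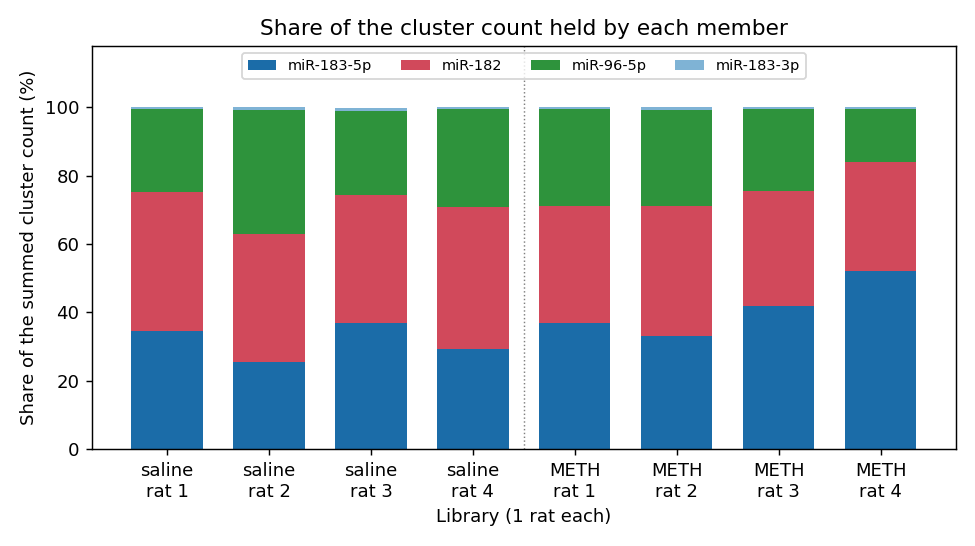
Share of the summed cluster count held by each member in each library, as stacked bars in percent. The share of miR-182 changes little between rats, and METH rat 4 has the largest share of miR-183-5p, at 52.1%, and the smallest of miR-96-5p, at 15.3%. The share of miR-96-3p is too small to see and is not drawn.

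The miRNAs outside the cluster whose log2 CPM followed the summed cluster level most closely were found by Pearson correlation over the 8 libraries among 504 candidates. These were miR-192-5p at 0.90, miR-143-3p at 0.87, miR-27a-3p at 0.85, miR-431 at 0.82 and miR-99a-5p at 0.81. The points share their group, so these values are given as a description. The changes of these miRNAs were small beside those of the cluster. The level of miR-192-5p, an epithelial miRNA, was 120 to 131 CPM in the saline rats and 112, 158, 190 and 154 CPM in METH rats 1 to 4. The level of miR-143-3p, a miRNA of smooth muscle, was 2047 to 2329 CPM in the saline rats and 2418 to 3139 CPM in the METH rats.

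After subtraction of each group mean, the highest correlations were 0.95 for miR-483-5p, 0.92 for miR-3074, 0.91 for miR-192-5p, 0.90 for miR-27a-3p and 0.89 for miR-383-5p. Both miR-483-5p and miR-3074 were below or near 1 CPM in every library, with the lowest values in METH rat 1, at 0.206 and 0.137 CPM. By rank, most of these correlations were lower. Over the 8 libraries the Spearman correlation was 0.52 for miR-192-5p, 0.67 for miR-27a-3p, 0.62 for miR-431 and 0.71 for miR-99a-5p, but 0.90 for miR-143-3p. After centring it was 0.33 for miR-192-5p, 0.45 for miR-27a-3p, 0.74 for miR-483-5p and 0.69 for miR-3074, but 0.93 for miR-383-5p. METH rats 2, 3 and 4 were above the saline range for miR-192-5p, and METH rat 1 was below it.

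The miR-200 family comprises epithelial miRNAs whose genes lie outside the miR-183 cluster. It was listed here with results of these same counts known, so its counts of calls are not independent evidence of its direction. Of its 9 arms, 5 were tested, and edgeR called 0 of 5, beside 0 of all 507 miRNAs. The adjusted p-values of these 5 arms in the quasi-likelihood test of edgeR were 0.347 to 0.559. All 5 were higher in the METH group at an unadjusted p under 0.05, as were 14 of all 507 miRNAs (2.76%). DESeq2 called 5 of 5, beside 8 of all 505 miRNAs (1.58%). The median log2 fold change of the 5 tested arms was 4.30. Of all 9 arms, miR-429 was the most abundant and miR-200c-5p, which was not tested, the least. Summed over the family, the level was 69.6, 310, 1608 and 22.9 CPM in METH rats 1 to 4, and 12.2 to 36.4 CPM in the saline rats. METH rat 4 was therefore within the saline range for the summed family while its cluster level of 300.4 CPM was above every saline rat. Taken alone, miR-429 was at 12.97 CPM in METH rat 4, just above the highest saline rat at 12.29 CPM. With TMM scaling every METH rat was thus above every saline rat, as for the guide strands of the cluster. For miR-429 this rests on the TMM factor of METH rat 4, 0.766, against 0.981 or more in the saline rats. By library totals METH rat 4 would lie below that saline rat. By correlation with the summed cluster level over the 8 libraries, miR-429 came just after the 5 miRNAs named above, with a Pearson value of 0.81 and a Spearman value of 0.90.

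**Figure D4:**
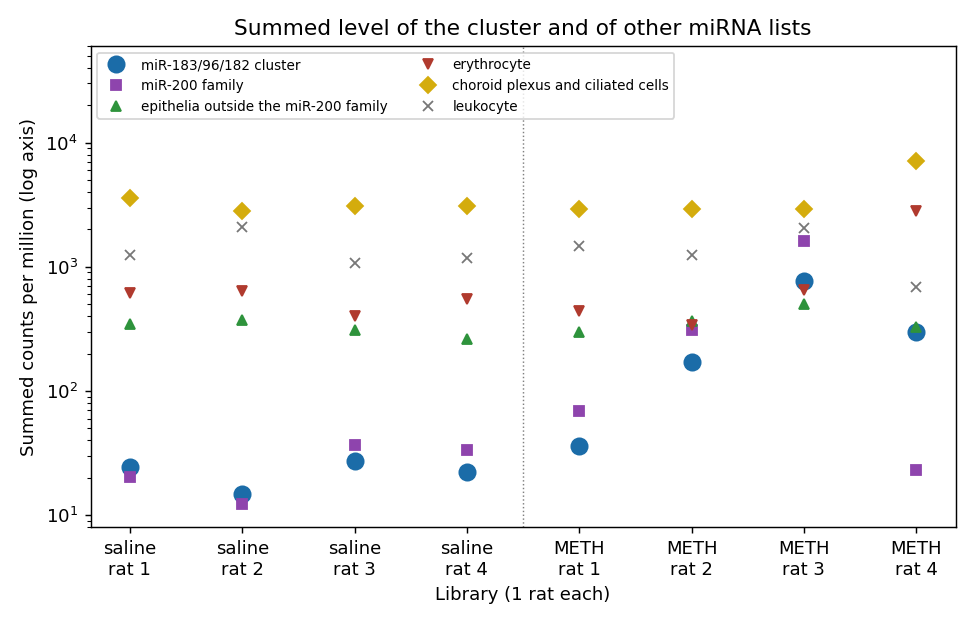
Summed level of the miR-183 cluster and of 5 other miRNA lists in each library, in CPM on a log axis. In METH rat 4 the cluster is at 300.4 CPM while the miR-200 family is at 22.9 CPM, and the erythrocyte and choroid plexus lists are at their highest.

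Marker miRNAs of cells that a striatal sample could hold were examined by list. Neuronal markers, of which miR-124-3p was the highest and miR-137-3p the lowest, were all 4 detected and summed to between 249554 and 451242 CPM in the saline rats and between 293280 and 438386 CPM in the METH rats. Epithelial markers outside the miR-200 family summed to 263 to 374 CPM in the saline rats and 299 to 502 CPM in the METH rats, with METH rat 3 the highest. Of the 5 listed, 4 were tested and edgeR called 0, beside 0 of all 507 miRNAs tested. The highest was miR-194-5p and the lowest miR-205.

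METH rat 4 stood apart in the sums of several lists. Its erythrocyte markers, led by miR-451-5p and lowest for miR-144-5p, summed to 2817 CPM, against 342 to 648 CPM in the other 7 rats. Its choroid plexus and ciliated cell markers, led by miR-204-5p and lowest for miR-211-5p, summed to 7132 CPM, against 2804 to 3580 CPM. Its pituitary and endocrine markers, led by miR-7a-5p, a miRNA that neurons also express, and lowest for miR-375-3p, summed to 73840 CPM, against 15994 to 37097 CPM. In METH rat 3, where the cluster was highest, these lists were at 648, 2912 and 15994 CPM. The second lay within the saline range and the last below it. Each of these sums came mostly from its highest member. Averaged over all libraries, miR-451-5p was at 803 CPM and the next erythrocyte marker at 3.27 CPM. For the choroid plexus list they were 3404 CPM for miR-204-5p and 71.1 CPM for the next. For the pituitary list they were 29803 CPM for miR-7a-5p and 2899 CPM for the next. Of the 5 choroid plexus and ciliated cell markers tested, 3 were higher in the METH group.

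Leukocyte markers, led by miR-150-5p and lowest for miR-142-5p, summed to 1082 to 2099 CPM in the saline rats and 693 to 2067 CPM in the METH rats. Hindbrain and spinal cord markers, led by miR-10a-5p and lowest for miR-196a-5p, summed to 13.7 to 66.8 CPM and 7.35 to 58.6 CPM. Of the markers in the table, 0 were at 0 in all libraries. Over the 7 marker lists 0 miRNAs were called by edgeR, and 0 had an unadjusted p under 0.05. Over all 507 miRNAs tested these counts were 0 and 28 (5.52%). With so few markers, 0 is near this share and is no result about the markers. The part of other cell types in the levels of the cluster was not tested.

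Library totals ranged from 12929302 counts in METH rat 1 to 27632443 in saline rat 3, and TMM factors from 0.766 in METH rat 4 to 1.15 in saline rat 2. METH rat 1, the rat with the lowest cluster level of its group, had the smallest library, and the part of depth in its levels was not tested.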

How the data were processed

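Total RNA of the striatum was extracted with TRIzol, and a small RNA fraction was cut from a gel and made into BGISEQ-500 libraries that carry unique molecular identifiers (UMIs). According to the submitters' processing notes, reads were trimmed with Cutadapt 1.18, aligned to rn6 with STAR 2.7.0e and counted with featureCounts of Subread 1.6.4. The values deposited by the authors are raw counts per mature miRNA. Merging of reads by UMI, the miRNA annotation and the handling of multiple alignments are not given in the sources used here. If reads were not merged, PCR copies are counted more than once, and reads that fit several miRNAs could have been split between them.

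Groups were taken from the sample titles, which number the rats 1 to 4 in each group. The table held 752 miRNAs, of which 90 had 0 counts in every library. Low counts were removed with filterByExpr of edgeR 4.0.16 (minimum count 10), and groups were compared by its quasi-likelihood test with TMM factors, group as the only term and Benjamini-Hochberg adjustment over 507 miRNAs (R 4.3.3). The arm miR-183-3p was fitted without the filter in all settings. The SE of a log2 fold change was taken as its size over the square root of the F statistic. CPM values use the TMM factors, and log2 CPM values a prior count of 2. Pairs of members were compared by an exact sign-flip permutation test over 8 rats with adjustment over 10 pairs. Shares have exact Clopper-Pearson 95% intervals (scipy 1.17.1). The edgeR and sign-flip steps were tested on simulated data.

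The members and the marker lists were chosen with earlier results of these data known. Named miRNAs were the members, the 5 others with the highest correlation with the summed cluster level over all libraries and the 5 with the highest after subtraction of group means, every miRNA with a member's seed, and the highest and lowest of each marker list. Of the listed markers, miR-486 and miR-215 were not matched by name and were not analysed here. Alternatives were other scalings (relative log expression, upper quartile, library totals), no filter or at least 10 counts in every library, DESeq2 1.42.0, the rat number as a block, other counts added to ratios, and each library left out in turn.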

Additional observations from a re-analysis of the deposited data

Results flagged for a closer look

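Within groups of 4 rats, 26 sets of member levels, ratios and shares were searched for a rat that stood far from its group, by the gap to the nearest rat as a share of the whole range (95% critical value of Dixon's test). Chance marks about 1 in 20 such sets, and 2 were found. Saline rat 2 was low for miR-182. Its level was 2.49 log2 CPM, whereas the remaining saline rats lay between 3.23 and 3.35, with a gap of 0.858 of the range. Saline rat 3 was high for miR-183-3p, at -1.53 log2 CPM against -2.26 to -2.14, with a gap of 0.844 of the range, on 7 counts against 3 in each of the other saline rats.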

How the results depend on the processing

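The count of miRNAs called between METH and saline was 0 with each other scaling and filter (16 to 32 at an unadjusted p under 0.05), 8 with DESeq2 and 0 to 5 with 1 library left out. The 5 calls, of 513 miRNAs tested, came without METH rat 1. They included miR-183-5p, miR-96-5p and miR-182, which were chosen on this contrast, and miR-183-3p, which passed the filter there only through the METH rats. Of the 5 tested arms of the miR-200 family, DESeq2 called 5 with all libraries. The edgeR test called 0 arms of this family with all libraries and 0 with any library left out. DESeq2 was not run with a library left out. With the rat number as a replicate block, 0 miRNAs were called, and 23 had an unadjusted p under 0.05. Rats with the same number share only that number, since deviations from the group means correlated at -0.36 to -0.15 between them. Log2 fold changes with 1 library left out were 3.33 to 4.64 for miR-183-5p, 2.67 to 4.00 for miR-182, 2.47 to 3.93 for miR-96-5p and 2.55 to 3.81 for miR-183-3p, each lowest without METH rat 3 and highest without METH rat 1. The log2 ratio of miR-183-5p over miR-182 changed sign with the METH libraries alone, at 0.24, and ranged from -0.16 to 0.024 with 1 library left out, at 0.024 without saline rat 2 and 0.020 without saline rat 4. That of miR-183-5p over miR-96-5p ranged from 0.29 to 0.62. The cause of these changes was not tested. Leaving aside miR-183-3p against miR-96-3p, whose counts were too low, the other pairs had the same direction and stayed on the same side of the threshold with 1 or 2 added to counts and with each library left out. The mean summed cluster level of the METH group ranged from 169 CPM without METH rat 3 to 413 CPM without METH rat 1. Depth limits the passenger arms most, since miR-96-3p had 3 counts in all.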
